A study of Homo sapiens with 9 samples.

Results

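The collagen hydroxylase and lysyl oxidase genes P4HA1, P4HA2, PLOD1, PLOD2, LOX and LOXL2 were examined for HIF-1α binding in hypoxic and normoxic neuroblastoma cells. A peak belonged to a gene when its summit lay in a fixed hg19 window around that gene. The 6 windows were 60 to 150 kb long and together 630 kb. They held 15 called sites of the 9420 in the whole series, where a site is a stretch of overlapping called intervals joined over all peak lists. HIF-1α was mapped by chromatin immunoprecipitation with sequencing (ChIP-seq) in SK-N-BE(2), a human neuroblastoma line known for MYCN amplification. Cells were kept at 1% oxygen for 48 hours (hypoxia, 3 libraries) or at 21% oxygen for 48 hours (normoxia, 3 libraries). All cells grew in RPMI 1640 with 10% FBS. The 3 input libraries came from cells at 21% oxygen, and no input from hypoxic cells was used here. Whether the 3 libraries of a group are separate cultures is not stated in the labels; the p-values therefore rest on a spread that may be technical.

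Collagen chains are modified in the endoplasmic reticulum before they are secreted. Prolyl hydroxylases add hydroxyl groups to prolines, which steadies the triple helix, and lysyl hydroxylases modify lysines that later take part in cross-links. After secretion, lysyl oxidases turn lysines into reactive aldehydes, which bind neighbouring chains together and stiffen the matrix. Several of these genes are known HIF-1 targets in fibroblasts and tumour cells. HIF-1 binds DNA through a core of ACGTG or GCGTG, and its α subunit is degraded when oxygen is plentiful.

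The promoters of the members with a core match are shown because that core is what HIF-1 recognises. RefSeq promoters on GRCh38.p14 were matched for P4HA1, P4HA2, PLOD1, PLOD2 and LOX, and that of LOXL2 was not used here. The letters below are the 250 bases before the gene start, 5′ to 3′ on the gene's strand, with each ACGTG or GCGTG match on either strand in capitals (CACGT and CACGC are their reverse complements). Of 3 starts listed for LOX, the most upstream is shown.
P4HA1, chr10:73096867-73097116, minus strand: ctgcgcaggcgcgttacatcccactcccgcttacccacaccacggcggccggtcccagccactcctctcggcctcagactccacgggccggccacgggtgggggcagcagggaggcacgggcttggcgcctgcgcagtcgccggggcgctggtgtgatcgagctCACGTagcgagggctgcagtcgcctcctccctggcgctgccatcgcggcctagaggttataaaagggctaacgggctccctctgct
PLOD1, chr1:11934467-11934716, plus strand: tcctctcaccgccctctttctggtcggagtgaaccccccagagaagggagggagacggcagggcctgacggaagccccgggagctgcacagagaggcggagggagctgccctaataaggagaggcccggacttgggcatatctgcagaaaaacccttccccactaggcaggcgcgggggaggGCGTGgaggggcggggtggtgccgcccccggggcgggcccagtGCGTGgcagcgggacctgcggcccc
PLOD2, chr3:146161185-146161434, minus strand: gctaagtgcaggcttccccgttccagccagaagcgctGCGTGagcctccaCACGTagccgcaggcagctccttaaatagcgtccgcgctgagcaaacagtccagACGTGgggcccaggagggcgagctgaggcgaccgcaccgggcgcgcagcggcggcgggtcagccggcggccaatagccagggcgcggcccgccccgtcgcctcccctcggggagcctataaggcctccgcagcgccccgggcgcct
LOX, chr5:122078260-122078509, minus strand: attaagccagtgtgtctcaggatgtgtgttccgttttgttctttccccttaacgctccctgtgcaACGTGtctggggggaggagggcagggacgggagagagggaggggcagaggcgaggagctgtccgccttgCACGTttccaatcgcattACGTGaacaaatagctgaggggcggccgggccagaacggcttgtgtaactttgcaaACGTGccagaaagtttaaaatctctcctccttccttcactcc

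ACGTG stood in the promoters of 3 of these 5 genes (P4HA1, PLOD2 and LOX), and ACGTG or GCGTG in 4 of 5. Of all 35116 RefSeq promoters of the same length, 18.5% held ACGTG and 43.2% held either core. P4HA1 had 1 ACGTG match, whose first letter lay 86 bases before the start. LOX had 4 ACGTG matches, at 185, 116, 98 and 42 bases before the start shown. Each of the other LOX starts listed had 1 ACGTG and 1 GCGTG match. PLOD2 had ACGTG at 200 and 146 bases and GCGTG at 213 bases before the start, and PLOD1 had GCGTG at 68 and 25 bases. P4HA2 had neither core in these 250 bases. CACGTG, which reads ACGTG on both strands and is also the core of the E-box bound by MYC proteins, was in none of the 5 and in 6.34% of all promoters. A match describes letters only. The promoters are placed on GRCh38 and the called sites on hg19, so whether a called site covered one of these stretches was not determined.

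All 6 windows held a HIF-1α site that recurred between hypoxia libraries, and 1 window, that of PLOD1, also held a normoxia call. Sites called in at least 2 hypoxia lists are named recurrent. Of all 100 kb tiles of chromosomes 1 to 22 and X, 10.5% held a recurrent site. A site called in all 3 hypoxia lists was present in 4 of 6 windows (P4HA1, P4HA2, PLOD1 and LOXL2), against 3.24% of tiles. A normoxia call was present in 1 of 6 windows, against 0.406% of tiles. The tiles were not chosen for gene content and their length differs from that of the windows, so these shares describe the genome and do not single out the 6 genes. Without hypoxia 2 or without hypoxia 3, 4 of 6 windows kept a recurrent site; PLOD2 and LOX lost theirs in both cases, because hypoxia 1 had no call in either window.

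Of the 15 sites, 10 (66.7%) were recurrent, against 44% of the 9395 regions with a hypoxia call in the series. All 3 hypoxia lists called 5 of the 15 (33.3%), against 11.5% in the series. Another 5 were called in hypoxia 2 and hypoxia 3 only, 2 in hypoxia 2 only and 3 in hypoxia 3 only. A normoxia list called 1 of the 10 recurrent sites, against 2.25% of the 4136 recurrent regions in the series. Hypoxia 1, 2 and 3 had 6, 12 and 13 called intervals in the windows, against 0, 0 and 2 for normoxia 1, 2 and 3. As a share of each list the order differs: 0.426%, 0.206% and 0.171% for hypoxia, against 0%, 0% and 1.83% for normoxia, where the 2 intervals of normoxia 3, out of 109, give the highest share of the 6 libraries.

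The libraries were of similar depth but their lists differed in length. Background stood at 5.31 to 6.62 reads per kb in hypoxia and 6.02 to 6.69 in normoxia. The lists held 1408 to 7619 intervals in hypoxia and 32 to 109 in normoxia. List length thus went with the oxygen level, and their parts in the counts per window cannot be told apart. With every list cut to its 32 intervals of smallest p, the length of the shortest list, the difference of mean counts was 0 at P4HA1, P4HA2, PLOD2, LOX and LOXL2, and 0.333 in place of 2.67 at PLOD1 (exact permutation p = 1 at each gene). This cut keeps 32 of 1408 to 7619 intervals in hypoxia, so most hypoxia calls drop out by construction. A difference near 0 there therefore says little about the member sites. The length to which reads had been extended was 155 and 167 bp in hypoxia 2 and 3, and 46 to 48 bp in hypoxia 1 and the normoxia libraries. The authors' fold is the reads at a summit over the local background, with 1 added to each. With this added 1, the fold is on different scales in libraries of different extension. It is used here to place a site within its own list. The part of the extension in the differences between groups was not tested.

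**Figure D1:**
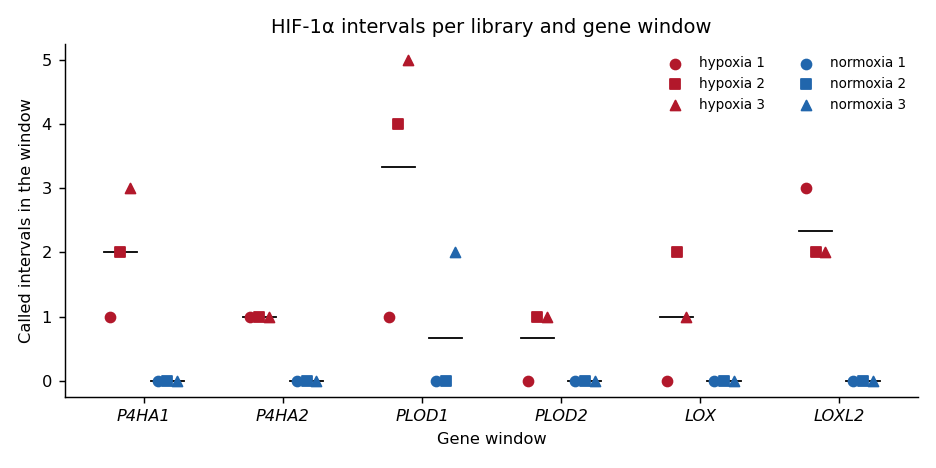
Called HIF-1α intervals (vertical axis, number per window) in the windows of the 6 genes (horizontal axis), with 1 symbol per library, hypoxia in red and normoxia in blue, and a bar at the mean of 3 libraries. The hypoxia values reach 5 at PLOD1, and the normoxia values are 0 everywhere except 2 intervals at PLOD1 in normoxia 3.

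Both prolyl hydroxylase genes had sites in all 3 hypoxia lists and in no normoxia list. P4HA1 encodes the main catalytic α subunit of collagen prolyl 4-hydroxylase, and its window held 1, 2 and 3 intervals in hypoxia 1, 2 and 3 and 0 in each normoxia library. Hypoxia libraries averaged 2 ± 1 and normoxia libraries 0 ± 0 (SD, n = 3 each). Every hypoxia library exceeded every normoxia library. The exact permutation p (two-sided) was 0.1, which 3 libraries against 3 cannot go below, or 0.2 after Benjamini-Hochberg adjustment over the 6 genes. P4HA2 encodes an alternative catalytic subunit. Its window held exactly 1 interval in each hypoxia library and 0 in each normoxia library, so each hypoxia library was 1 interval above each normoxia library (exact permutation p = 0.1, adjusted 0.2). With only intervals of −log10 q of at least 5, or of a fold of at least 6, the hypoxia 1 call at P4HA2 dropped out. The difference of means there was then 0.667 (exact permutation p = 0.4). In lists of equal length the difference was 0 at both genes.

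The strongest P4HA1 site was among the highest in each hypoxia list. It lay at chr10:74856319-74857124 and had folds of 14.7, 66.3 and 77.4 in hypoxia 1, 2 and 3. By fold it ranked 90 of 1408, 32 of 5833 and 25 of 7619 intervals. By p it ranked 88, 43 and 37, so it missed the cut to 32 intervals in each list. Behind its summit were 26, 137 and 145 reads, with −log10 p of 30.4, 233 and 262. The summits of smallest p fell at 74856679, 74856723 and 74856701, within 44 bp of each other, and no normoxia list had a call. In hypoxia 1 the interval held 2 summits, the other at 74856835 with 19 reads.

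The other P4HA1 sites had lower folds and were called in 1 library each. Those at chr10:74855290-74855493 (fold 5.66, hypoxia 2) and chr10:74855897-74856240 (fold 4.77, hypoxia 3) lay 1.33 and 0.619 kb to the left of the strong site. One more, at chr10:74870085-74870330 with a fold of 8.48 in hypoxia 3 (rank 1954 of 7619), lay 13.5 kb to its right. NUDT13 is the next protein-coding gene on that side in the RefSeq order, and the windows do not assign a site to 1 gene of several.

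P4HA2 had a single site in its window, whose rank differed between the hypoxia lists. With the window widened by 50 kb on each side there were 1, 3 and 8 intervals in hypoxia 1, 2 and 3 and 0 in each normoxia library, so the single site depends on the window's edges. CSF2 and PDLIM4 flank P4HA2 in the RefSeq order, and the added intervals were not assigned to a gene. The site in the window spanned chr5:131563435-131564068, with folds of 4.4, 17.7 and 21.2 in hypoxia 1, 2 and 3. It ranked 1234 of 1408 intervals in hypoxia 1 but 506 of 5833 in hypoxia 2 and 433 of 7619 in hypoxia 3. The summit held 5 reads in hypoxia 1, the number a call there needed at genome-wide background, and 33 and 39 reads in hypoxia 2 and 3. Summits at 131563687, 131563703 and 131563733 lay within 46 bp.

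The lysyl hydroxylase genes differed in how many sites their windows held. PLOD1, whose enzyme modifies lysines in the collagen helix, had 1, 4 and 5 intervals in hypoxia 1, 2 and 3, against 0, 0 and 2 for normoxia 1, 2 and 3. Hypoxia libraries averaged 3.33 ± 2.08 and normoxia libraries 0.667 ± 1.15 (SD, n = 3 each). Hypoxia 1 lay below normoxia 3, so the groups overlapped, and the exact permutation test gave p = 0.2 (adjusted 0.3). The 2 normoxia 3 intervals lay inside 1 long hypoxia 1 interval with 4 summits. The difference of means was 2.67. It was 1.67 with only intervals of a fold of at least 6 and 0.333 in lists of equal length. Counted by summit, the difference was 3.67. The summits numbered 4, 4 and 5 in hypoxia 1, 2 and 3, against 0, 0 and 2 in normoxia 1, 2 and 3. By summit the groups did not overlap (exact permutation p = 0.1, unadjusted). PLOD2, whose enzyme modifies lysines in the collagen telopeptides, had 0, 1 and 1 intervals in hypoxia 1, 2 and 3 and 0 in each normoxia library (exact permutation p = 0.4, adjusted 0.4), and the groups overlapped at 0. With only intervals of −log10 q of at least 5, or of a fold of at least 6, the difference of means at PLOD2 was 0.333 in place of 0.667, and in lists of equal length it was 0.

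The strong PLOD1 site was one of the highest in the hypoxia 2 list and the only member site with a normoxia call. It spanned chr1:11989756-11990390, with folds of 11.1, 93.7 and 63.3 in hypoxia 1, 2 and 3 at the summit of smallest p. Another hypoxia 1 summit there had a fold of 11.8. By fold at the summit of smallest p it ranked 182 of 1408, 4 of 5833 and 45 of 7619 intervals. Its summits of smallest p held 38, 179 and 157 reads and lay at 11990036, 11990054 and 11990064, within 28 bp. With the other 3 summits of hypoxia 1 included, the spread was 456 bp.

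Normoxia 3 called the same stretch as 2 separate short intervals. Their folds were 5.84 and 7.73, their summits held 10 and 9 reads, and they ranked 83 and 45 of 109 in that list. The summit of the first, at 11990036, was the same base as that of hypoxia 1. At that base hypoxia 1 had 38 reads and normoxia 3 had 10, a ratio of 3.59 after division by depth. Both libraries had a short extension, so the reads are on the same scale, but this is a ratio of single libraries with no replicate error. Local background there was 7.96 times the genome-wide value in hypoxia 1 and 3 times in normoxia 3, and its part in the ratio was not tested.

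Further PLOD1 sites followed to the right of the strong one, 1.24, 9.27, 14.5 and 22.1 kb away, and none was called in hypoxia 1 or in normoxia. The second, at chr1:11991103-11991529, had folds of 3.61 and 6.36 in hypoxia 2 and 3. The third, at chr1:11999068-11999650, had folds of 9.9 and 8.48. The last, at chr1:12012071-12012390, had folds of 5.21 and 5.83, with summits 162 bp apart, the widest gap between hypoxia 2 and 3 among the recurrent sites. The fourth, at chr1:12004485-12004651, was called in hypoxia 3 only, with a fold of 5.83. KIAA2013 and MFN2, which encodes a mitochondrial fusion protein, flank PLOD1 in the RefSeq order.

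The single PLOD2 site spanned chr3:145879056-145879340. Its fold was 4.4 in hypoxia 2 and 13.8 in hypoxia 3, the largest relative gap between these libraries at any recurrent member site. It ranked 5237 of 5833 intervals in hypoxia 2 and 869 of 7619 in hypoxia 3. The summit held 14 and 25 reads, and local background was 2.62 times the genome-wide value in hypoxia 2 and 1 times in hypoxia 3. The summits, at 145879230 and 145879204, lay 26 bp apart.

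**Figure D2:**
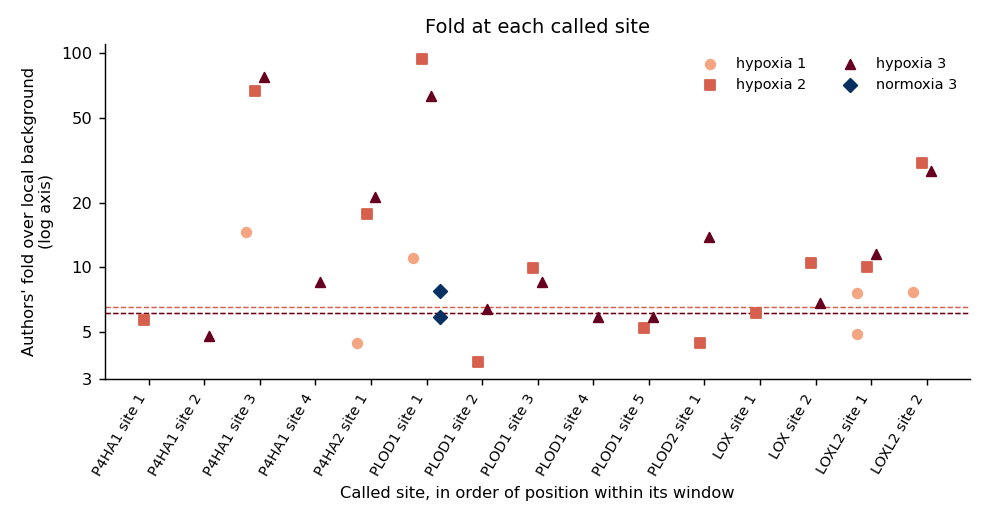
The authors' fold over local background (vertical axis, log scale) at the 15 called sites (horizontal axis, by gene and position), with 1 symbol per library and dashed lines at the median fold of each hypoxia list (6.07, 6.53 and 6.12 in hypoxia 1, 2 and 3, where the lines of hypoxia 1 and 3 nearly coincide). The strong P4HA1 and PLOD1 sites reach 77.4 and 93.7, while sites called in 1 library lie between 4.77 and 8.48.

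The lysyl oxidase genes had unlike patterns. LOX encodes a secreted copper enzyme that oxidises lysines of collagen and elastin, and its window held 0, 2 and 1 intervals in hypoxia 1, 2 and 3 and 0 in each normoxia library. Hypoxia libraries averaged 1 ± 1 and normoxia libraries 0 ± 0 (SD, n = 3 each), and the groups overlapped at 0 (exact permutation p = 0.4, adjusted 0.4). LOXL2 encodes a related oxidase with roles in basement membrane collagen. Its window held 3, 2 and 2 intervals in hypoxia 1, 2 and 3 and 0 in each normoxia library, averages of 2.33 ± 0.577 and 0 ± 0 (SD, n = 3 each). The groups did not overlap (exact permutation p = 0.1, adjusted 0.2). In lists of equal length the difference was 0 at LOX and at LOXL2.

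The recurrent LOX site spanned chr5:121413977-121414262 and had folds of 10.4 in hypoxia 2 and 6.81 in hypoxia 3. It ranked 1215 of 5833 and 3126 of 7619 intervals. The summits held 20 and 16 reads and lay 38 bp apart, at 121414109 and 121414147. A second site, at chr5:121412349-121412647, lay 1.73 kb to the left and was called in hypoxia 2 only, with a fold of 6.13. SRFBP1, a neighbour of LOX in the RefSeq order, overlaps the LOX gene, so the window does not separate the 2 genes. Whether a called site lies in that overlap was not determined.

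LOXL2 had a pair of sites 26.9 kb apart, each called in all 3 hypoxia libraries. The stronger, at chr8:23220543-23221048, had folds of 7.66, 30.6 and 28 in hypoxia 1, 2 and 3 and ranked 421 of 1408, 174 of 5833 and 247 of 7619 intervals. Its summits held 11, 60 and 55 reads and lay within 48 bp. The weaker, at chr8:23193570-23194094, had folds of 7.6, 9.98 and 11.5. Hypoxia 1 called it as 2 separate short intervals, the other with a fold of 4.88. Its summits of smallest p spanned 150 bp and all its hypoxia summits 255 bp, although the summits of hypoxia 2 and 3 lay 18 bp apart. R3HCC1 and ENTPD4 flank LOXL2 in the RefSeq order.

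**Figure D3:**
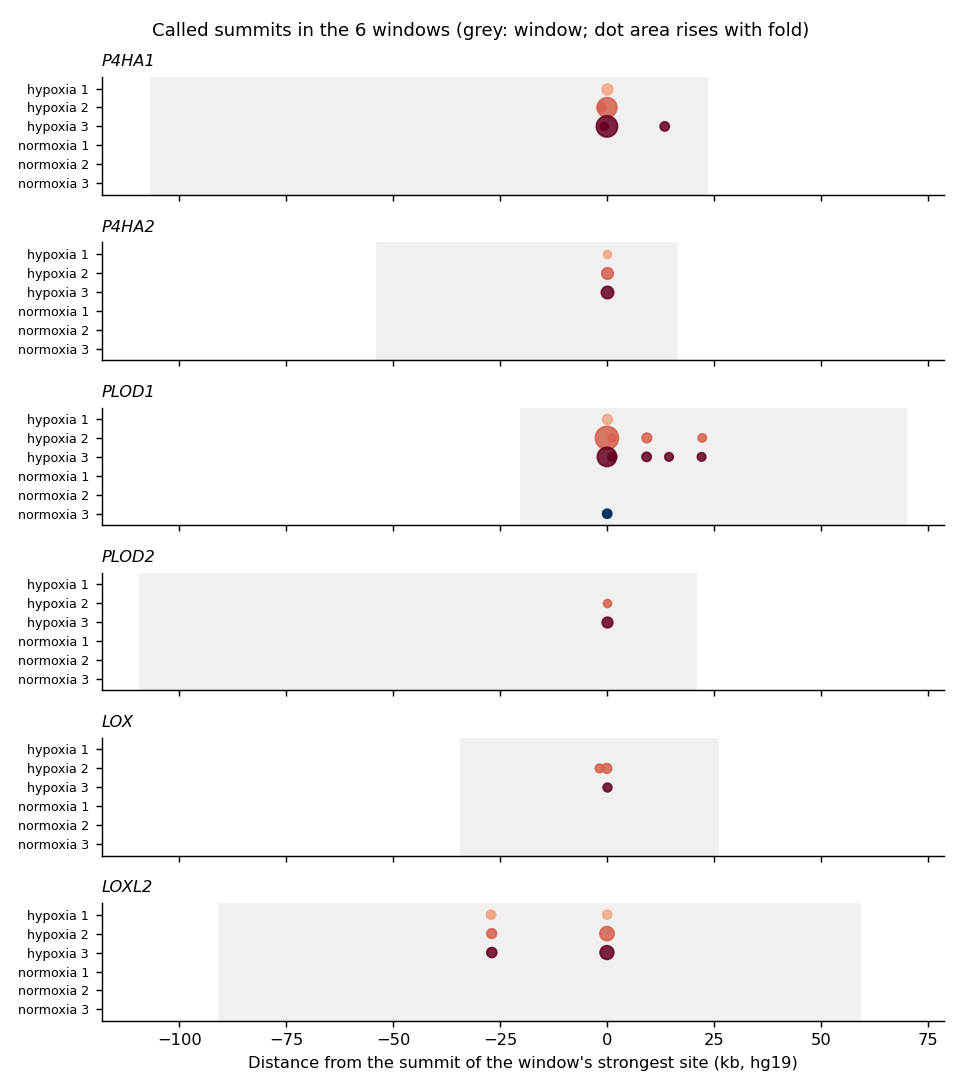
Summits called in each library (rows) in the 6 windows (panels), placed by distance in kb from the summit of the window's strongest site, with dot area rising with the authors' fold and the window in grey. Dots of close sites overlap at this scale. The LOXL2 window shows 2 columns of dots 26.9 kb apart in all 3 hypoxia rows, and the only normoxia dots lie at the strong PLOD1 site.

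Ordered by the highest fold in a window, the genes fell into the same 3 pairs in hypoxia 2 and hypoxia 3. PLOD1 and P4HA1 came first, with 93.7 and 66.3 in hypoxia 2 and 63.3 and 77.4 in hypoxia 3. LOXL2 and P4HA2 followed, with 30.6 and 17.7 in hypoxia 2 and 28 and 21.2 in hypoxia 3. LOX and PLOD2 came last, with 10.4 and 4.4 in hypoxia 2 and 6.81 and 13.8 in hypoxia 3. Within the first and the last pair the order changed between these libraries, so those neighbours are not separated beyond the spread between libraries. Hypoxia 1 had P4HA1, PLOD1, LOXL2 and P4HA2 in this order, with 14.7, 11.8, 7.66 and 4.4, and called neither PLOD2 nor LOX.

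The recurrent member sites had a higher median fold than all recurrent regions in each hypoxia list, over a wide range, and no test was run on this. Their median fold was 7.66, 10.2 and 12.7 in hypoxia 1, 2 and 3 (5, 10 and 10 sites). The median over all recurrent regions was 6.6, 7.46 and 7.95. Member folds ran from 4.4 to 14.7 in hypoxia 1, 3.61 to 93.7 in hypoxia 2 and 5.83 to 77.4 in hypoxia 3. Median interval lengths were 97, 447 and 472 bp at the member sites and 132, 279 and 320 bp over all recurrent regions. Median local background at the member sites was 2.65, 1.09 and 1 times the genome-wide value in hypoxia 1, 2 and 3. Over all recurrent regions it was 1.53, 1.37 and 1.55 times. The highest value at a recurrent member site was 7.96 times. Local background enters the fold, and its part in the higher median fold was not tested.

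A missing normoxia call does not show that HIF-1α was absent. At genome-wide background and the p of the weakest call in each list, 6 reads were needed for a call in normoxia 1, 2 and 3. Hypoxia 1 is the only hypoxia library whose extension matches, so the comparison rests on this library alone, which also had the shortest hypoxia list. Scaled to the normoxia depths, the strong P4HA1 site had 23.6 to 26.3 reads in hypoxia 1 and the strong PLOD1 site 34.5 to 38.4. Binding at the hypoxia 1 level would therefore have passed the number needed at both, 3.94 to 4.38 times at P4HA1 and 5.76 to 6.4 times at PLOD1. Local background at the hypoxia 1 summit was 2.65 times the genome-wide value at P4HA1 and 7.96 times at PLOD1. Hypoxia 2 and 3 had lower multiples, 1.18 and 1 at P4HA1 and 1 and 1.69 at PLOD1, so the hypoxia 1 multiples rest on that library alone. With the hypoxia 1 multiples applied in normoxia, 8 to 9 reads would be needed at P4HA1 and 13 to 14 at PLOD1. The scaled reads were 2.63 to 3.28 and 2.47 to 2.95 times these numbers. Normoxia 3 itself called the PLOD1 site with 10 and 9 summit reads, at 3 and 1 times its genome-wide background. The hypoxia 1 multiple at PLOD1 therefore did not hold in normoxia 3, and fewer reads than assumed were enough for a call. At LOXL2 the stronger site had 10 to 11.1 scaled reads and the weaker 11.8 to 13.1, which is 1.67 to 2.19 times the number needed at genome-wide background and 1.31 to 1.64 times that at the local background of hypoxia 1. At P4HA2 the scaled reads were 4.55 to 5.05, below the 6 needed at either background, so binding at the hypoxia 1 level falls short of a normoxia call. That site was weak in hypoxia 1, with 5 reads against 33 and 39 in hypoxia 2 and 3. PLOD2 and LOX had no hypoxia 1 call to scale, so this comparison could not be made there.

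**Figure D4:**
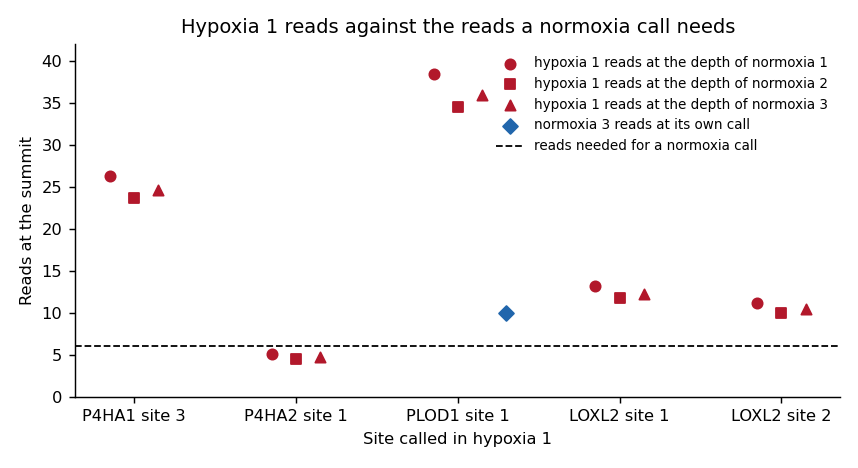
Summit reads of hypoxia 1 scaled to the depth of each normoxia library (red, vertical axis) at the 5 member sites it called (horizontal axis), with the reads of normoxia 3 at its PLOD1 call in blue and the 6 reads needed for a normoxia call at genome-wide background as a dashed line. P4HA2 lies below the line, at 4.55 to 5.05 reads, and the other sites lie above it.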

How the data were processed

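HIF-1α ChIP-seq peak lists of 3 hypoxia and 3 normoxia libraries were used, grouped by sample title. Reads were processed with BWA 0.7.17 and MACS2 on hg19, per the submitters' processing notes; the version and settings of MACS2 were not given in the sources used here. Each deposited list belongs to 1 library and gives the authors' fold ratio over local background, −log10 p and −log10 q values, and a score of 10 times the −log10 q. Intervals with the same ends were counted once, at the summit of smallest p, and intervals sharing at least 1 bp were joined. Reads and local background were recovered from fold and p within 0.001 plus rounding for all 16463 summits (100%), with code tested on simulated data. The smallest background of a list served as its genome-wide background, its shortest interval as its extension, and their quotient as its depth. A median of 9 to 24 summit reads lay behind an interval, which limits precision. Counts per window were compared by exact permutation tests (Python 3.11.15, scipy 1.17.1). The named genes are the 6 members; other genes of collagen maturation were not analysed here, since that needs an hg19 annotation. Members, windows and tests were chosen with earlier results of these data known. Alternatives are given at the end.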

Additional observations from a re-analysis of the deposited data

How the results depend on the processing

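The difference of mean interval counts, hypoxia minus normoxia, was 2 at P4HA1, 1 at P4HA2, 2.67 at PLOD1, 0.667 at PLOD2, 1 at LOX and 2.33 at LOXL2. Over 72 alternatives of these 6 counts, 67 gave a positive difference, none a negative one, and 5 gave 0. Those 5 came from lists cut to the 32 intervals of smallest p, as many as the shortest list holds: the difference was 0 at P4HA1, P4HA2, PLOD2, LOX and LOXL2 (exact permutation p = 1) and 0.333 at PLOD1. Fewer intervals enter there by construction. Other changes of over 1.5 times were 4 at P4HA2 with windows widened by 50 kb, 1.67 at PLOD1 with a fold of at least 6, and 0.333 at PLOD2 with a −log10 q of at least 5 or a fold of at least 6; the cause was not tested. In the other settings p never fell below 0.1, the smallest this design allows, so a p at that floor says nothing of stability. The exact permutation p rose from 0.1 to 0.4 at P4HA2 with a −log10 q of at least 5 or a fold of at least 6. There the hypoxia 1 call, with a fold of 4.4 and a −log10 q of 1.57, dropped out. With 1 library left out the difference lay between 1.5 and 2.5 at P4HA1, 1.83 and 3.83 at PLOD1, 0.5 and 1 at PLOD2, 0.5 (without hypoxia 2) and 1.5 at LOX, and 2 and 2.5 at LOXL2, and was 1 at P4HA2 throughout. With the replicate number as a block, the differences were 2, 1, 2.67, 0.667, 1 and 2.33 for the genes in the same order, equal to the unpaired ones by construction, with an exact sign-flip permutation p of at least 0.25, the smallest 3 pairs allow. Over the calls at 9420 regions, libraries of the same number deviated together with correlations of −0.0126 to 0.0835, and for 3 of 6 libraries the closest match was its own number. Normoxia 1, 2 and 3 called only 64, 27 and 96 of these regions, so the correlations cannot show whether the numbers pair the libraries, and the labels give only a number. Windows with a recurrent hypoxia site numbered 6, 5 at a −log10 q of at least 5 or a fold of at least 6, 4 when all 3 hypoxia lists had to call it, and 4 to 6 with 1 hypoxia library left out. Windows with a normoxia call numbered 1, but 0 when at least 2 normoxia lists had to call it and 0 to 1 with 1 normoxia library left out, since the call rests on normoxia 3. The share of tiles with a recurrent site was 5.72% for 50 kb and 14.7% for 150 kb in place of 10.5%. The PLOD1 read ratio was 3.59 also with the highest summit of each library, and 4 of the 5 sites called in hypoxia 1 passed the reads needed at genome-wide as at local background; both alternatives were added after the data were seen. Depth limits the weak sites, many of which rest on 5 to 20 reads.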
